A study of Mus musculus with 18 samples.

Results

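The nuclear genes for subunits of the mitochondrial respiratory chain and ATP synthase were followed across the livers of lean and obese mice with and without methotrexate. Members were taken by symbol, as every gene named Ndufa, Ndufb, Ndufc, Ndufs or Ndufv with a number, Sdha to Sdhd, Uqcr, the numbered Cox4 to Cox8 families or Atp5, provided that at least 4 of the 18 arrays showed a probe well above background. The choice used the array's detection flag and no change in level. It gave 81 of the 19597 genes with such a probe, which comprise 37 subunits of complex I, 4 of complex II, 8 of complex III, 15 of complex IV and 17 of ATP synthase. Of the 81 members, 78 lay well above background on all 18 arrays, and Ndufb10 and Uqcrh did on all 17 where they had a value. The member nearest to the limit was Cox7b2, well above background on 11 arrays, and the gene left out was Cox8c, well above background on 0 arrays. The symbols miss Cox4i1, Cox4i2, Cyc1, Cycs and Ndufab1, which are described apart, and 0 of the 13 subunits encoded by the mitochondrial genome could be named on the array, so that the changes given here concern the nuclear share of the chain alone.

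The respiratory chain passes electrons from NADH, through complex I, and from succinate, through complex II, by way of ubiquinone, complex III and cytochrome c to oxygen at complex IV. The protons pumped along the way drive ATP synthase. Complex I, III, IV and ATP synthase each combine subunits from the nucleus with subunits from the mitochondrial genome, whereas complex II, which is also the succinate dehydrogenase of the citrate cycle, is encoded wholly in the nucleus. Liver meets most of its ATP demand through this chain and feeds it with the products of fatty acid oxidation. Transcription of the nuclear subunits is driven by NRF1, GABPA, ERRα and YY1 with the coactivator PGC-1α (Ppargc1a).

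Total RNA of whole liver was hybridised for 18 male C57BL/6 mice, 1 array per mouse. LFD mice (4) ate a diet with 10% of its energy as fat and HFD mice (4) one with 60%, from 6 weeks of age. LFD MTX50 mice (5) and HFD MTX50 mice (5) ate the same diets and received 5 rounds of intraperitoneal methotrexate at 50 mg/kg, an antifolate, after 10 weeks of feeding, and their livers were taken 1 week after the last. All 4 groups are of the same strain and sex, and no genetic change is labelled in any of them. Levels are log2 spot signals minus the 75th percentile of the array, so that 0 is the brightness of that percentile and 1 unit is a 2-fold difference. A gene was called changed at an adjusted p below 0.05 in limma, with no demand on fold.

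The 5 hepatocyte markers checked (Alb, Apoa1, Ttr, Tat and Cps1) were present on all arrays, with a summed level of 8.61 to 9.30. The 75th percentile ran from 1203 to 2263 intensity units and 83.8 to 90.6% of probes lay well above background. The arrays occupy 6 slides. The 4 LFD arrays fill 1 slide alone, so that every comparison with LFD is also one between slides and these cannot be told apart. The same holds for HFD MTX50 against LFD MTX50, which share no slide, and only 1 slide holds arrays of 2 groups (HFD mice 3 and 4 with HFD MTX50 mice 1 and 2). In RNA of whole liver, fewer cells of a type and less RNA per cell cannot be told apart. The summed level of 4 kept erythroid markers was 1.67 to 1.92 in LFD and -0.79 to 0.20 in LFD MTX50, with 1 of the 4 called lower and 1 higher. That of 5 neutrophil markers was -0.01 to 0.38 and 0.12 to 2.79, with 1 of the 5 called higher. In HFD and HFD MTX50 the erythroid sums were 1.55 to 1.92 and -0.26 to 1.94, with 1 marker called higher. The neutrophil sums there were 0.03 to 1.05 and 0.23 to 5.63, with 0 called. The part of these cells in the changes below was not tested.

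Promoter sequences of 68 of the 81 members were found in RefSeq (GRCm38.p6, 250 bases before to 50 bases after the start), among 27025 genes with such a sequence. They were searched on both strands for GCGCANGCG (the NRF1 motif), CCGGAAG (GABPA and other ETS factors), AANATGGCG (YY1) and TCAAGGTCA (ERRα). The NRF1 letters stood in 19 members (27.9%, against 6.47% of all promoters), the ETS letters in 16 (23.5%, against 9.12%), the YY1 letters in 8 (11.8%, against 2.51%) and the ERRα letters in 2 (2.94%, against 0.407%). By complex, the NRF1 letters stood in 8 of 32 complex I promoters, 2 of 3 of complex II, 2 of 5 of complex III, 1 of 13 of complex IV and 6 of 15 of ATP synthase. The promoters of the complex II genes and of Ndufb6 and Cox5b are printed because complex II had the lowest median in the comparisons with LFD described next and Ndufb6 and Cox5b were lower in both. Sdhd is the complex II gene that was not called in LFD MTX50. Sdhc has no entry among these sequences. Capitals mark the matches, which do not overlap in these sequences. Sdha lies at chr13:74350191-74350490 (minus strand) and holds the NRF1 letters 3 times, from -98, -55 and -10 relative to the start. Sdhb lies at chr4:140961021-140961320 (plus strand) and holds the ETS letters from position 7. Sdhd lies at chr9:50603800-50604099 (minus strand) and holds the NRF1 letters from -79, the ETS letters from -46 and the ERRα letters from 37, the last 2 as their reverse complement. Ndufb6 lies at chr4:40279372-40279671 (minus strand) with the ETS letters from -232, also reversed. Cox5b lies at chr1:36691237-36691536 (plus strand) and holds none of the 4 motifs.
Sdha: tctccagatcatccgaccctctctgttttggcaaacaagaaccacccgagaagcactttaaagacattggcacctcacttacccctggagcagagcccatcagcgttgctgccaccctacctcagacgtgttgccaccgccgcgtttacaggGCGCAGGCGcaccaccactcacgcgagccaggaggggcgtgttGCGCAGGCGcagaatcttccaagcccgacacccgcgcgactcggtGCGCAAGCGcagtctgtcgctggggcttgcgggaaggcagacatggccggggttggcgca
Sdhb: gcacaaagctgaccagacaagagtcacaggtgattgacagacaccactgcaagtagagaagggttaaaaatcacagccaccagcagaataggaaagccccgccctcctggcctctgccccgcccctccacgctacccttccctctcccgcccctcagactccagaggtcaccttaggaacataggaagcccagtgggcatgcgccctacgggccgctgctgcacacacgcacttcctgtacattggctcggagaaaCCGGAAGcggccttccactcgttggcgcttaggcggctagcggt
Sdhd: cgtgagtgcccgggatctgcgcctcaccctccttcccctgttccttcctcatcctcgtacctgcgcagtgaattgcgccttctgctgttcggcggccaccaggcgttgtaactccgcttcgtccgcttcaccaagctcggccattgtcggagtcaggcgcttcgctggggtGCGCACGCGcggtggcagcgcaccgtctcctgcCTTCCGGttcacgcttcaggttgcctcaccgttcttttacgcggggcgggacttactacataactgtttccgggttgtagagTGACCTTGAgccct
Ndufb6: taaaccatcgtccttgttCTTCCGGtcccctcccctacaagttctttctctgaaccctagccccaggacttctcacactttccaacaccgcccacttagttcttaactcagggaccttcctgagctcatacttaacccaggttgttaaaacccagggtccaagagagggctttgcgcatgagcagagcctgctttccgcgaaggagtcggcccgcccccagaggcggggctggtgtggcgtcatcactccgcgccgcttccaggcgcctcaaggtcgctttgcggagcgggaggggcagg
Cox5b: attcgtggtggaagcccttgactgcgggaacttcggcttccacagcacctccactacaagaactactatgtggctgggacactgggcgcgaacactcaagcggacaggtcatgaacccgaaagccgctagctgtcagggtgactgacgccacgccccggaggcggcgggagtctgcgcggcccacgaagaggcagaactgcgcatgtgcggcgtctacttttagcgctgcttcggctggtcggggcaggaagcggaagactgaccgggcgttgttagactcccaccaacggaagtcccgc

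Members with and without a motif had similar medians. In LFD MTX50 against LFD the median log2 difference was -0.33 over the 19 members with the NRF1 letters and -0.32 over the 49 without, and -0.33 over the 16 with the ETS letters and -0.32 over the 52 without. In HFD against LFD the medians were -0.31 with and -0.29 without the NRF1 letters. These are descriptions with no test.

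Seen mouse by mouse, the subunits were lower in the treated lean livers and in most obese livers than in untreated lean livers. The median member stood at -0.08 to 0.07 relative to the LFD mean in the 4 LFD mice, at -0.38 to -0.26 in the LFD MTX50 mice, at -0.37 to -0.08 in the HFD mice and at -0.53 to -0.05 in the HFD MTX50 mice. All 5 LFD MTX50 mice lay below every LFD mouse, while the highest HFD mouse (mouse 2, -0.08) and the highest HFD MTX50 mouse (mouse 1, -0.05) reached the range of LFD. HFD MTX50 mouse 3 was the lowest of the 18, with 75 of 81 members below the LFD mean. The mean was lowest for complex II. Complex II averaged -0.77 to -0.38 in the LFD MTX50 mice, against -0.25 to -0.16 for complex I, -0.35 to -0.23 for complex III, -0.22 to -0.15 for complex IV and -0.45 to -0.26 for ATP synthase. These means weigh dim tissue forms and members that rose like the rest, with rises up to 0.96 (Ndufa4l2, complex I) and 0.53 (Cox8b, complex IV). Ndufa10 of complex I was 0.45 higher because of a low value in LFD mouse 1 (-1.41). By medians complexes I, III, IV and ATP synthase were closer, at -0.26, -0.36, -0.31 and -0.34, and complex II was at -0.64.

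**Figure D1:**
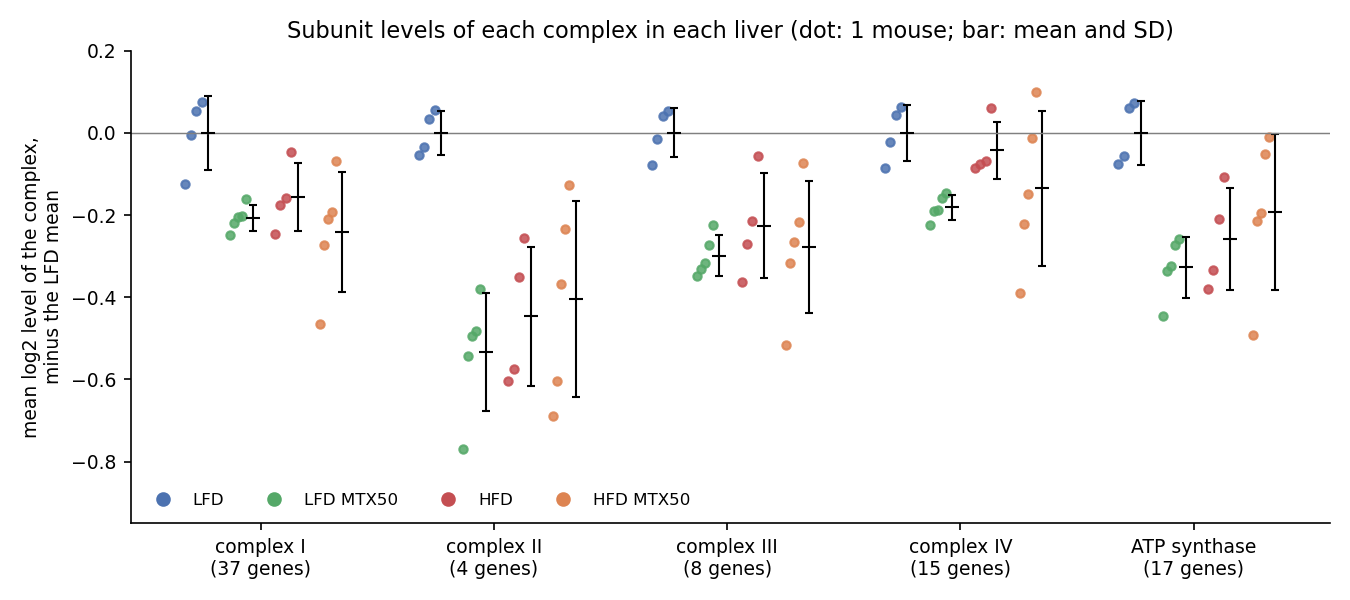
Mean log2 level of the subunits of each complex in each liver, minus the LFD mean (vertical axis), for the 5 complexes (horizontal axis); each dot is 1 mouse, sorted within a group, and the bar gives the group mean and SD. All 5 LFD MTX50 mice lie below the 4 LFD mice in every complex, and the distance is widest for complex II (-0.77 to -0.38). The means of complexes I and IV include dim members that rose.

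Methotrexate in lean mice (LFD MTX50 against LFD) asks what the drug did without obesity, and it went with the most subunit changes of the comparisons made. Of 81 members, 39 were lower (48.1%, where 10.5% of all genes tested were lower) and 3 higher (3.70%, where 17.6% of all genes were higher). The median log2 difference was -0.32 over the members and 0.10 over all genes tested, a gap of -0.43. In 50 members every LFD MTX50 mouse lay below every LFD mouse, as 11.5% of all genes did. Lower members numbered 3 of 4 in complex II (median -0.64), 6 of 8 in complex III (-0.36), 16 of 37 in complex I (-0.26), 9 of 17 in ATP synthase (-0.34) and 5 of 15 in complex IV (-0.31).

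The median was lowest in complex II. Sdha, the flavoprotein that oxidises succinate, stood at 3.88, 4.00, 3.96 and 4.10 in the 4 LFD mice and at 3.28, 3.33, 2.96, 3.47 and 3.41 in the 5 LFD MTX50 mice, a difference of -0.70 ± 0.13 (SE, adjusted p = 0.00292, 1.62-fold lower). Sdhb, the iron-sulfur subunit that carries the electrons onward, stood at 4.59, 4.71, 4.57 and 4.66 in LFD and at 4.18, 3.94, 3.66, 4.03 and 4.11 in LFD MTX50 (-0.65 ± 0.16, adjusted p = 0.0105). The groups did not overlap in either gene. A second, dimmer Sdhb probe also fell (-0.47, adjusted p = 0.0212). Sdhc, a membrane anchor that binds ubiquinone, stood at 4.32, 4.36, 4.29 and 4.17 in LFD and at 3.73, 3.65, 3.30, 3.58 and 3.98 in LFD MTX50 (-0.64 ± 0.14, adjusted p = 0.00518). A second, dimmer Sdhc probe disagreed with the first, at -0.16 (adjusted p = 0.356), so that the change of Sdhc rests on the probe read. Sdhd, the other anchor, was not called, with -0.15 ± 0.12 (adjusted p = 0.347) and overlapping groups.

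In complex I the lower members included subunits of the electron-input arm and of the membrane arm. Ndufs1, the largest iron-sulfur subunit of the input arm, stood at 2.66, 2.79, 2.81 and 2.67 in LFD and at 2.27, 2.18, 2.20, 2.18 and 2.18 in LFD MTX50 (-0.53 ± 0.10, adjusted p = 0.00286). Ndufb6, an accessory subunit of the membrane arm, stood at 3.81, 4.01, 4.08 and 4.04 in LFD and at 3.48, 3.34, 3.21, 3.42 and 3.54 in LFD MTX50 (-0.59 ± 0.11, adjusted p = 0.00349). The 2 groups were apart in both genes, and a second Ndufb6 probe also fell (-0.39, adjusted p = 0.0237). Ndufv2, which sits beside the flavin subunit, fell by 0.48 (SE 0.11, adjusted p = 0.00812). The flavin subunit itself, Ndufv1, was not called (-0.26 ± 0.10, adjusted p = 0.0532).

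In complex III, Uqcrc1, a core subunit that faces the matrix, stood at 1.90, 2.23, 2.12 and 2.01 in LFD and at 1.77, 1.50, 1.59, 1.57 and 1.25 in LFD MTX50 (-0.53 ± 0.13, adjusted p = 0.0112). Uqcrfs1, the Rieske iron-sulfur protein that takes electrons from ubiquinol, stood at 5.14 to 5.20 in the 4 LFD mice and at 4.77, 4.62, 4.52, 4.66 and 4.93 in LFD MTX50 (-0.47 ± 0.12, adjusted p = 0.0107). All treated mice were below all untreated mice in both. Uqcrb and Uqcrq were not called, at -0.13 ± 0.10 (adjusted p = 0.339) and 0.25 ± 0.12 (adjusted p = 0.113).

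In complex IV, Cox5b, a nuclear subunit facing the matrix that binds zinc, stood at 5.24, 5.53, 5.44 and 5.40 in LFD and at 4.99, 4.71, 4.32, 4.70 and 5.07 in LFD MTX50 (-0.65 ± 0.17, adjusted p = 0.0118). Cox7a2, the form of subunit VIIa found in liver, stood at 4.57, 4.71, 4.65 and 4.77 in LFD and at 4.17, 3.99, 3.82, 4.13 and 4.02 in LFD MTX50 (-0.65 ± 0.14, adjusted p = 0.00475). Cox5a fell by 0.43 (SE 0.11, adjusted p = 0.0111). Cox6a1, the liver form of subunit VIa, was not called (-0.14 ± 0.10, adjusted p = 0.292).

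In ATP synthase, Atp5k, a small membrane subunit at the dimer interface, stood at 3.98, 4.15, 4.10 and 4.07 in LFD and at 3.60, 3.48, 3.29, 3.34 and 3.56 in LFD MTX50 (-0.62 ± 0.14, adjusted p = 0.00720). A second Atp5k probe fell by 0.56. The catalytic head was lower too. Atp5a1, the α subunit, fell by 0.56 (SE 0.16, adjusted p = 0.0185), although LFD mouse 1, at 5.06, lay within the LFD MTX50 range of 4.75 to 5.24. Atp5b, the catalytic β subunit, fell by 0.32 (SE 0.10, adjusted p = 0.0223). The c-ring genes Atp5g1 and Atp5g2 were not called, with -0.35 ± 0.15 (adjusted p = 0.0731) and -0.12 ± 0.22 (adjusted p = 0.691), and Atp5g3 fell by 0.31 (SE 0.11, adjusted p = 0.0433).

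After quantile normalization, which forces all arrays to the same distribution, 20 of the 39 lower members were still lower (24.7% of members, where 10.3% of all genes were lower), with a median of -0.22. There 3 were higher (3.70%, where 1648 of all 19597 genes were higher). With slides as a random block 0 members were called, where 1.73% of all genes were, 38 had an unadjusted p below 0.05, as 24.8% of all genes did, and the median was -0.32. The count of called members was 22 without LFD mouse 2, 28 without LFD mouse 4 and up to 48 when another array was left out. Calls over all 19597 genes went from 3450 higher and 2053 lower to 1932 and 1255 without LFD mouse 2. They were 2583 and 1658 without LFD mouse 4.

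**Figure D2:**
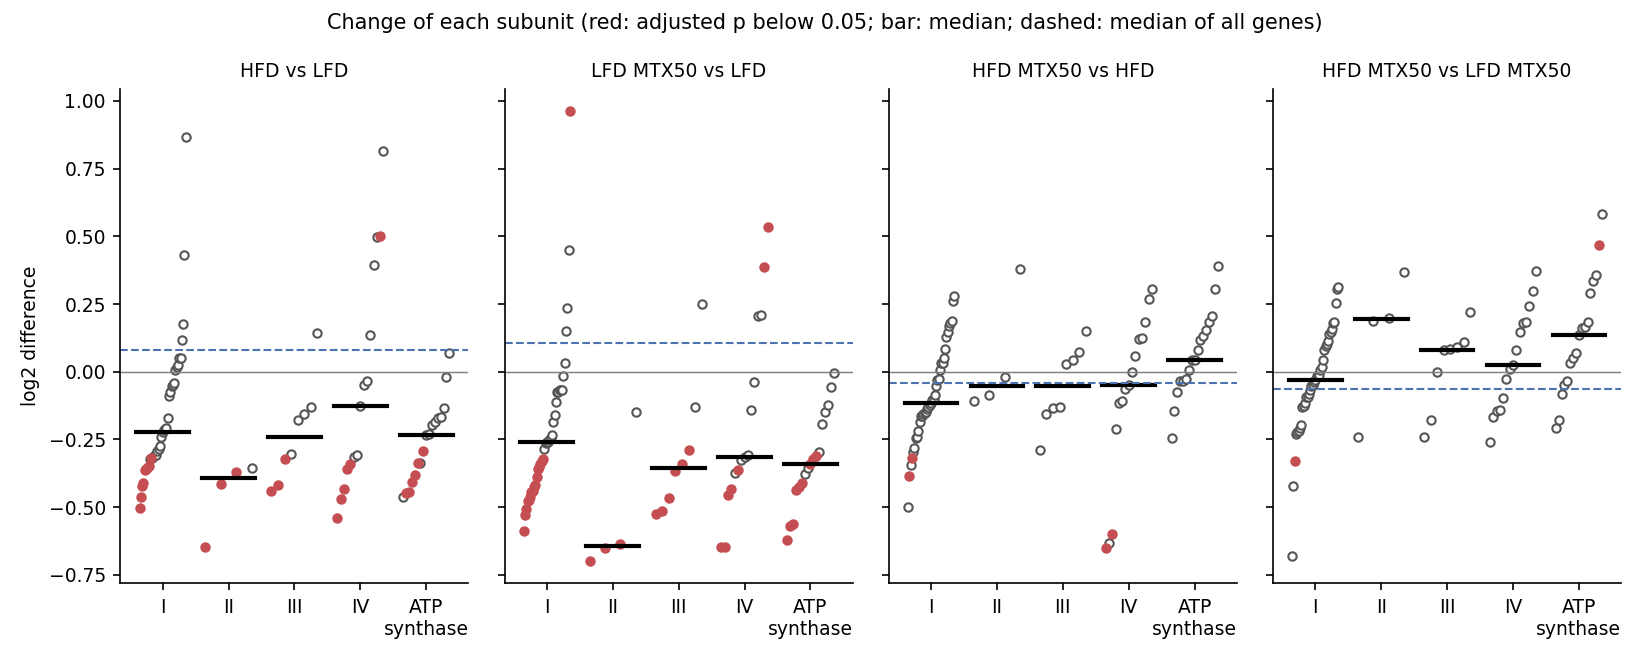
Log2 difference (vertical axis) of each of the 81 members by complex (horizontal axis) in 4 comparisons; each point is 1 gene, red where the adjusted p is below 0.05, the bar is the median of the complex and the dashed line the median of all genes tested. In LFD MTX50 against LFD the bars lie between -0.26 and -0.64 while the dashed line is at 0.10, and in HFD against LFD they lie between -0.13 and -0.39, a shift that shrank to a median of -0.04 over the members after quantile normalization.

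The high-fat diet alone (HFD against LFD) asks what obesity did to the same genes. Under the 75th percentile scaling, 26 of 81 members were lower (32.1%, where 10.4% of all genes were lower) and 1 was higher (1.23%, where 18% of all genes were higher). The median was -0.24, against 0.08 over all genes. In 37 members every HFD mouse lay below every LFD mouse, as 16.2% of all genes did. Lower members were 3 of 4 in complex II (median -0.39), 3 of 8 in complex III (-0.24), 9 of 37 in complex I (-0.22), 6 of 17 in ATP synthase (-0.23) and 5 of 15 in complex IV (-0.13).

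The decreases depended on scaling more than those under methotrexate in lean mice. After quantile normalization 2 members were lower (2.47%, where 10.4% of all genes were lower), with a median of -0.04. There 3 were higher (3.70%, where 1713 of all 19597 genes were higher). With slides as a random block 0 members were called, where 1.94% of all genes were, and 31 had an unadjusted p below 0.05, as 26.7% of all genes did. Leaving out HFD mouse 3 left 5 called members, against 7 without HFD mouse 4, 9 without LFD mouse 2, 10 without LFD mouse 4 and up to 31 without another array. Calls over all 19597 genes fell as well, from 3522 higher and 2033 lower to 1360 and 884 without HFD mouse 3. They were 1627 and 929 without HFD mouse 4, 2043 and 1274 without LFD mouse 2, and 2328 and 1265 without LFD mouse 4. The summed level of the 6 adipocyte markers was -1.46 to -0.90 in LFD and 2.06 to 2.74 in HFD, with 3 of 6 called higher (Plin1, Cfd and Lep), and that of the 5 hepatocyte markers was 8.95 to 9.19 and 8.77 to 8.98, with 1 called lower (Cps1). The part of these cells in the changes was not tested.

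The 2 members lower under both scalings were Sdhc and Ndufb5. Sdhc stood at 3.79, 3.88, 3.35 and 3.53 in the HFD mice, below all 4 LFD mice (-0.65 ± 0.14, adjusted p = 0.00704; -0.46 after quantile normalization, adjusted p = 0.0212), but its dimmer probe gave 0.01 (adjusted p = 0.961). Ndufb5, an accessory subunit of the complex I membrane arm, stood at 3.77, 3.91, 3.71 and 3.80 in LFD and at 3.46, 3.43, 3.12 and 3.17 in HFD (-0.50 ± 0.11, adjusted p = 0.00763; -0.32 after quantile normalization, adjusted p = 0.0466). Its dimmer probe was at -0.21 and was not called. HFD mice 3 and 4 were the lowest of the 4 in both genes.

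Other members were lower under the 75th percentile scaling alone. Cox5b stood at 5.16, 5.15, 4.51 and 4.63 in HFD (-0.54 ± 0.18, adjusted p = 0.0319), with mice 1 and 2 close to the lowest LFD mouse. Cox7a2 stood at 4.32, 4.52, 3.92 and 4.07 (-0.47 ± 0.14, adjusted p = 0.0250). Sdha stood at 3.70, 3.71, 3.45 and 3.43 (-0.41 ± 0.14, adjusted p = 0.0354). Sdhd, which was not called in treated lean mice, stood at 4.57, 4.73, 4.62 and 4.77 in LFD and at 4.30, 4.48, 4.26 and 4.18 in HFD (-0.37 ± 0.12, adjusted p = 0.0367). Ndufb6 (-0.46 ± 0.12, adjusted p = 0.0132), Uqcrfs1 (-0.42 ± 0.12, adjusted p = 0.0222) and Atp5b (-0.29 ± 0.10, adjusted p = 0.0397) were also lower. Sdhb (-0.36 ± 0.17, adjusted p = 0.122), Ndufs1 (-0.21 ± 0.10, adjusted p = 0.140), Uqcrc1 (-0.16 ± 0.14, adjusted p = 0.410) and Cox5a (-0.31 ± 0.12, adjusted p = 0.0558) were not called.

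Cox7a2l, a paralog of Cox7a2, stood at 4.04, 4.11, 3.92 and 3.98 in LFD and at 3.68, 3.87, 3.54 and 3.52 in HFD (-0.36 ± 0.10, adjusted p = 0.0197; not called after quantile normalization, -0.17). In LFD MTX50 it stood at 4.29, 4.16, 4.09, 4.31 and 4.23, a difference of 0.20 ± 0.10 from LFD that was not called (adjusted p = 0.124) and was called higher after quantile normalization (0.32, adjusted p = 0.0200). Its 3 probes gave -0.36, -0.37 and -0.52 in HFD and 0.20, 0.25 and 0.03 in LFD MTX50.

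**Figure D3:**
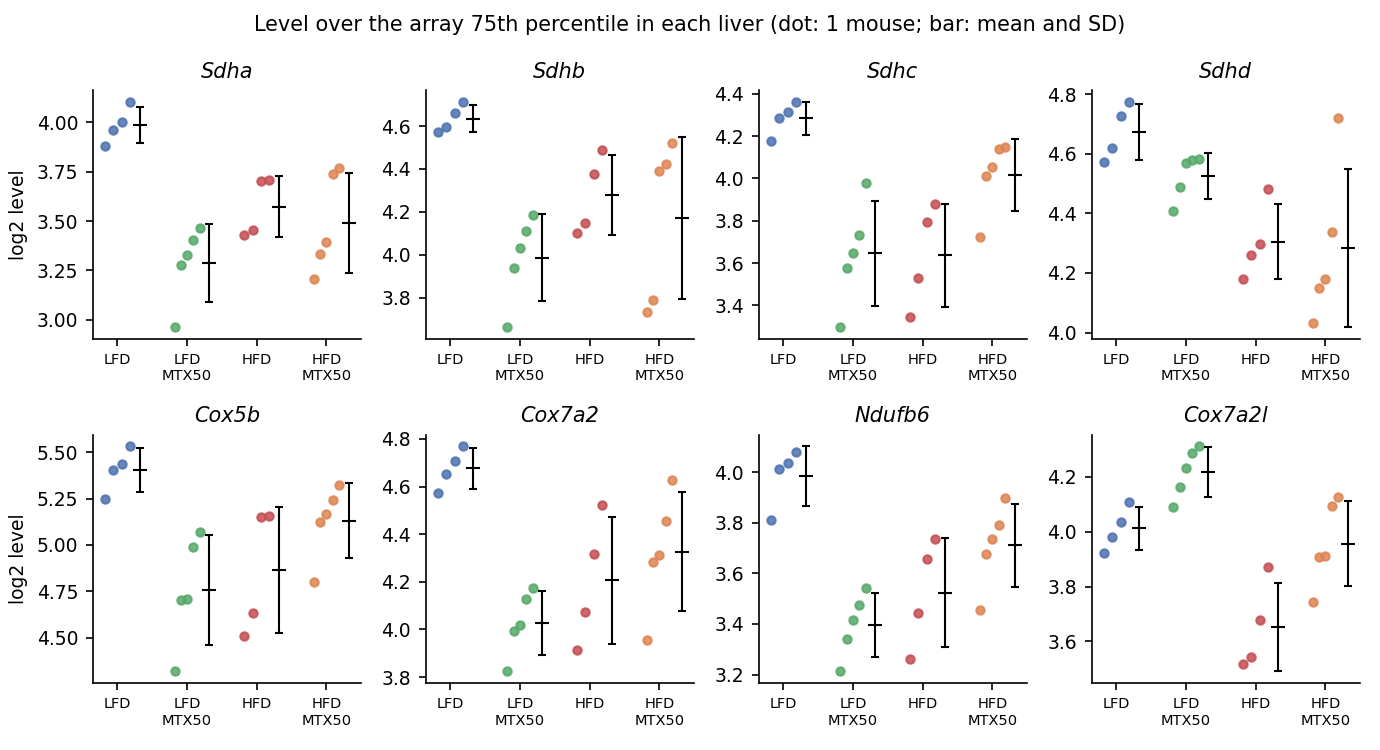
Log2 level over the array's 75th percentile (vertical axis) in each liver by group (horizontal axis) for the 4 complex II genes, Cox5b, Cox7a2, Ndufb6 and Cox7a2l; each dot is 1 mouse, sorted within a group, and the bar gives mean and SD. Sdha, Sdhb, Sdhc, Cox5b, Cox7a2 and Ndufb6 separate LFD MTX50 from LFD, whereas Cox7a2l in LFD MTX50 (4.09 to 4.31) lies at or above LFD (3.92 to 4.11).

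The direction of these changes has to be read beside the brightness of the probes, since 64 of the 81 members belong to the brightest decile of genes. Under the 75th percentile scaling, that decile without the members had a median of -0.21 in HFD against LFD, -0.12 in LFD MTX50 against LFD and 0.13 in HFD MTX50 against HFD. The 64 bright members had medians of -0.31, -0.34 and 0.01. Called lower were 26 of the 64 and 306 of the other 1896 genes of the decile in HFD, and 36 of the 64 and 449 of the 1896 in LFD MTX50. After quantile normalization the 64 members were at -0.07, -0.24 and -0.18, and the decile without them was at -0.02, -0.03 and -0.01. At the dim end, the dimmest decile had medians of 0.44, 0.49 and -0.19 under the 75th percentile scaling.

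**Figure D4:**
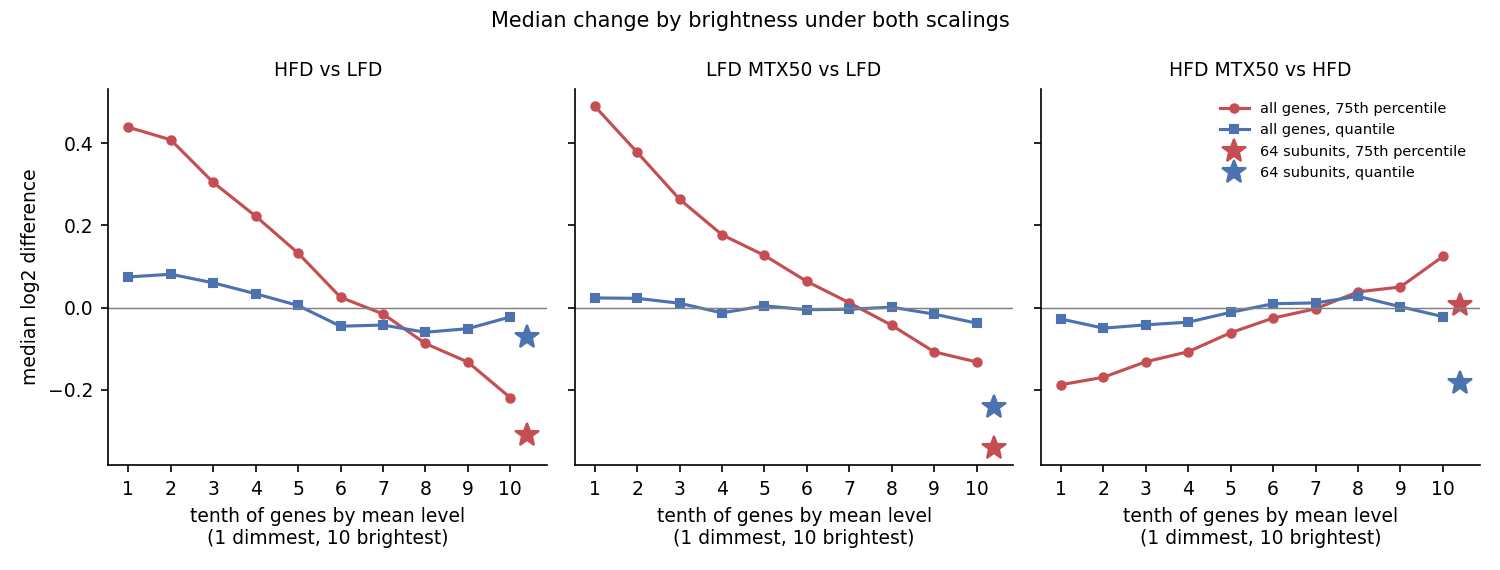
Median log2 difference (vertical axis) of all genes by decile of mean level (horizontal axis), after scaling to the 75th percentile (red) and after quantile normalization (blue), in 3 comparisons; stars are the 64 members in the brightest decile. In LFD MTX50 against LFD both stars (-0.34 and -0.24) lie below the brightest decile (-0.13 and -0.04), and in HFD against LFD the blue star (-0.07) lies close to it (-0.02).

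Methotrexate in obese mice (HFD MTX50 against HFD) asks what the drug did in the presence of obesity. Few members changed, with 0 higher (where 4.83% of all genes were higher) and 4 lower (4.94%, where 6.13% of all genes were lower). The median was -0.03, against -0.04 over all genes, and it was 0.01 after scaling to the median of probes detected throughout, -0.20 after quantile normalization and 0.13 within the shared slide. The 4 lower members were Ndufs1 and Ndufb3 of complex I and Cox7a1 and Cox6a2 of complex IV, the last of which are the heart and muscle forms of their subunits. Ndufs1 stood at 2.64, 2.53, 2.47 and 2.46 in HFD and at 2.53, 2.07, 2.05, 2.34 and 2.05 in HFD MTX50 (-0.32 ± 0.10, adjusted p = 0.0489), so that treated mouse 1 stayed in the untreated range. Ndufb3, a small membrane-arm subunit, stood at 2.19, 2.30, 2.08 and 2.22 and at 1.70, 1.72, 1.46, 2.02 and 2.17 (-0.38 ± 0.12, adjusted p = 0.0479). Of the 18 fits that left out 1 array, Ndufs1 lost its call in 16, Ndufb3 in 15, Cox6a2 in 12 and Cox7a1 in 10. The losses included fits without LFD arrays. Quantile normalization kept all 4 and gave 6 lower members (7.41%, where 6.21% of all genes were lower). All 4 calls were lost with slides as a random block (adjusted p = 0.110 for Ndufs1, 0.0596 for Ndufb3, 0.0618 for Cox7a1 and 0.0543 for Cox6a2), and the 2 members called, Ndufa4 and Cox7a2l, were higher, where 9.48% of all genes were called in either direction.

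On the slide that holds both groups, 5 members were higher in HFD MTX50 mice 1 and 2 than in HFD mice 3 and 4, where 3.85% of all genes were higher, and 0 were lower, where 3.45% of all genes were. These were Sdhc (0.60, adjusted p = 0.0416), Cox5b (0.67, adjusted p = 0.0471), Ndufa4 (0.58, adjusted p = 0.0155), Ndufa7 (0.48, adjusted p = 0.0406) and Atp5o (0.65, adjusted p = 0.0223). Over all slides none of the 5 was called without a block, and Ndufa4 was called with slides as a random block (0.37, adjusted p = 0.0480). The count of called members went from 4 to 10 without HFD MTX50 mouse 1, and without HFD MTX50 mouse 3 it was 4, all higher. It was 0 without HFD mouse 3, HFD mouse 4, LFD MTX50 mouse 2 or LFD mouse 3, and 1 to 3 without any of the other arrays. Calls over all 19597 genes went from 946 higher and 1202 lower to 1302 and 1653 without HFD MTX50 mouse 1. They were 923 and 865 without HFD MTX50 mouse 3, 158 and 142 without HFD mouse 3, and 141 and 141 without HFD mouse 4.

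The effect of methotrexate differed between diets in 24 members, tested as the treatment effect on HFD minus that on LFD. It was higher on HFD in 23 members (28.4%, where 8.66% of all genes were higher) and lower in 1 (1.23%, where 18.1% of all genes were lower), with a median difference of 0.25 against -0.11 over all genes. Genes of like brightness were shifted as well. The brightest decile without the members had a median of 0.25 with 367 of 1896 genes higher, and the 64 members in that decile had a median of 0.33 with 23 higher. The difference draws on all 4 groups, and the 2 treatment effects are given side by side. In Sdhc the effect was -0.64 on LFD and 0.38 on HFD (difference 1.02 ± 0.19, adjusted p = 0.00538), and in Cox5b it was -0.65 and 0.27 (0.91 ± 0.24, adjusted p = 0.0130). In Ndufb6 it was -0.59 and 0.19 (0.78 ± 0.16, adjusted p = 0.00650) and in Cox7a2 -0.65 and 0.12 (0.77 ± 0.19, adjusted p = 0.0117). Sdhb differed by 0.54 and was not called (adjusted p = 0.0853). The member with the opposite sign was Cox6b2.

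The median difference turned from 0.25 to -0.01 after quantile normalization, where 2 members were higher (2.47%, where 7.89% of all genes were higher) and 3 lower (3.70%, where 1737 of all 19597 genes were lower). The 2 were Sdhc (0.77, adjusted p = 0.0121), whose dimmer probe gave -0.15 (adjusted p = 0.552) before it, and Ndufb6 (0.54, adjusted p = 0.0287), whose second probe gave 0.48 and was called. With slides as a random block 5 members were called (Sdhc, Ndufb6, Cox7a2, Atp5j and Atp5o), where 6.37% of all genes were, and without a block 11 were called without HFD mouse 3, 12 without HFD mouse 4 and up to 33 without another array. Calls over all 19597 genes went from 1697 higher and 3546 lower to 863 and 2144 without HFD mouse 3. They were 865 and 2255 without HFD mouse 4.

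Obese and lean mice under methotrexate (HFD MTX50 against LFD MTX50) differed little in these genes. Of 81 members, 1 was higher (where 7.37% of all genes were) and 1 lower (where 8.75% were), with a median of 0.03 against -0.06 over all genes. Atp5k stood at 4.25, 3.99, 3.57, 3.75 and 4.04 in HFD MTX50 and was higher by 0.47 ± 0.14 (adjusted p = 0.0297). Ndufa6, an accessory subunit of complex I, stood at 3.91, 3.94, 3.84, 4.10 and 3.42 in LFD MTX50 and at 3.59, 3.61, 3.36, 3.61 and 3.40 in HFD MTX50 (-0.33 ± 0.11, adjusted p = 0.0491). The groups overlapped in both, and of the 18 fits that left out 1 array Ndufa6 lost its call in 15 and Atp5k in 4. Neither was called with slides as a random block (adjusted p = 0.127 for Atp5k and 0.301 for Ndufa6), where 0.0919% of all genes were. Without LFD MTX50 mouse 5, which is alone on its slide, 7 members were called, against 6 without HFD MTX50 mouse 1, 4 without HFD MTX50 mouse 3, 3 without HFD MTX50 mouse 2, 0 without LFD MTX50 mouse 2 or 3, and 1 or 2 without any of the other arrays. Calls over all 19597 genes went from 1444 higher and 1714 lower to 1798 and 2054 without LFD MTX50 mouse 5. They were 793 and 887 without LFD MTX50 mouse 2, and 751 and 788 without LFD MTX50 mouse 3.

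A few members are paralogs or tissue forms of other subunits. Cox6b2, the testis form of subunit VIb, stood at -0.68, -0.71, -0.60 and -0.58 in LFD, at -0.23, -0.14, -0.10 and -0.10 in HFD (0.50 ± 0.12, adjusted p = 0.00848) and at -0.32, -0.26, 0.06, -0.30 and -0.47 in LFD MTX50 (0.39 ± 0.11, adjusted p = 0.0191). Both groups lay above LFD without overlap, and both calls held after quantile normalization. Neither was called with slides as a random block (adjusted p = 0.0760 in HFD and 0.156 in LFD MTX50), and the call in LFD MTX50 was also lost under scaling to the median (adjusted p = 0.0528) and without LFD mouse 2 (adjusted p = 0.0560). Ndufa4l2, a paralog of Ndufa4 known as a target of the hypoxia factor HIF-1, stood at -1.79, -2.19, -2.04 and -2.12 in LFD and at -1.63, -0.75, -1.43, -1.77 and 0.20 in LFD MTX50 (0.96 ± 0.29, adjusted p = 0.0235). Mice 5 and 2 carried most of that rise, and the call was lost without LFD MTX50 mouse 2 or without LFD mouse 2, 3 or 4. Ndufa4, counted here with complex I by its symbol and since assigned to complex IV, was lower in HFD (-0.36 ± 0.11, adjusted p = 0.0281).

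Cox7a1 stood at -1.09, -0.86, -0.47 and -0.63 in HFD and at -1.02, -1.32, -1.80, -1.53 and -1.40 in HFD MTX50 (-0.65 ± 0.20, adjusted p = 0.0463). Cox6a2 stood at -1.41, -1.16, -0.80 and -0.89 in HFD and at -1.19, -1.51, -1.72, -1.75 and -2.16 in HFD MTX50 (-0.60 ± 0.18, adjusted p = 0.0461). Treated mouse 1 overlapped the untreated mice in both. Both forms are made in muscle and brown fat. The summed level of 5 skeletal muscle markers was -1.73 to -1.24 in HFD and -2.28 to -1.46 in HFD MTX50, with 0 of the 5 called. That of 6 adipocyte markers was 2.06 to 2.74 in HFD and -0.66 to 0.68 in HFD MTX50, where Cfd was 5.32 lower, Adipoq was 0.88 higher and the other 4 were not called. Cox8b, the muscle form of subunit VIII, was higher in LFD MTX50 (0.53 ± 0.19, adjusted p = 0.0482) and not after quantile normalization (0.15). Its levels were dim and overlapped, at -5.41 to -4.51 in LFD and -4.90 to -4.24 in LFD MTX50. In that comparison the dimmest decile of all genes had a median of 0.49 and the next 0.38. The call was lost in 12 of the 18 fits that left out 1 array. The muscle markers there were -2.01 to -1.87 in LFD and -1.86 to -1.42 in LFD MTX50, with 2 of 5 called higher (Ckm and Acta1), and the adipocyte markers -1.46 to -0.90 and -1.04 to -0.23, with 3 of 6 called higher (Lep, Adipoq and Plin1). The part of these cells in the changes was not tested.

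**Figure D5:**
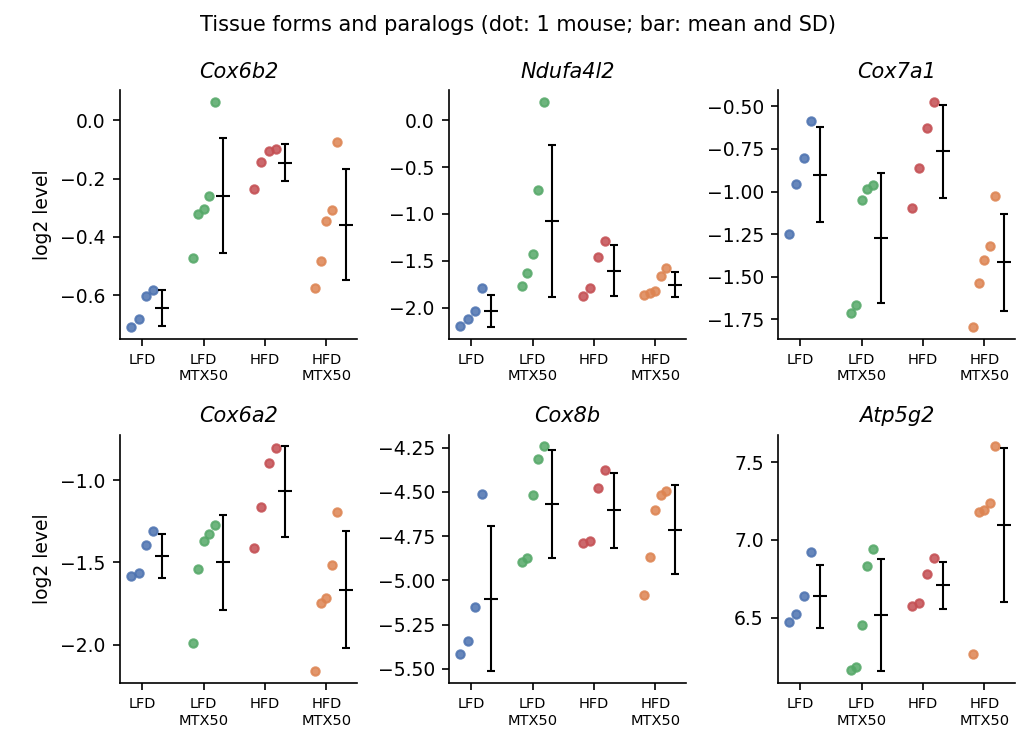
Log2 level over the array's 75th percentile (vertical axis) in each liver by group (horizontal axis) for 6 paralogs and tissue forms; each dot is 1 mouse, sorted within a group, and the bar gives mean and SD. Cox6b2 lies higher in HFD (-0.23 to -0.10) and LFD MTX50 (-0.47 to 0.06) than in LFD (-0.71 to -0.58), and Ndufa4l2 has 1 LFD MTX50 mouse at 0.20.

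Subunits that the symbols miss differed among themselves. Cycs, the mobile electron carrier cytochrome c, fell by 0.59 in LFD MTX50 against LFD (SE 0.13, adjusted p = 0.00551), and Cyc1, the haem subunit of complex III that reduces it, fell by 0.35 (SE 0.11, adjusted p = 0.0245). Neither was called in HFD (-0.22 ± 0.14, adjusted p = 0.210, and -0.13 ± 0.11, adjusted p = 0.402). Cox4i1, the ubiquitous subunit IV of complex IV, was not called in any of the 4 comparisons and stood at 4.19 to 4.31 in LFD and 3.97 to 4.66 in LFD MTX50 (0.13 ± 0.21, adjusted p = 0.647). Its lung form Cox4i2 was lower in LFD MTX50 (-0.77 ± 0.23, adjusted p = 0.0206). Ndufab1, the acyl carrier protein in complex I, was lower in HFD (-0.59 ± 0.14, adjusted p = 0.00884).

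Factors that build the complexes moved in smaller numbers, apart from those of complex II. Of the 4 complex II assembly factors, 3 were lower in LFD MTX50 against LFD and 3 in HFD against LFD. Sdhaf2, which attaches the flavin to Sdha, fell by 0.50 in LFD MTX50 (SE 0.11, adjusted p = 0.00638) and by 0.39 in HFD (SE 0.12, adjusted p = 0.0232). Sdhaf4, which holds flavinated Sdha before it joins Sdhb, fell by 0.48 in LFD MTX50 (SE 0.12, adjusted p = 0.00982). In LFD MTX50, where 10.5% of all genes were lower and 17.6% higher, 6 of 16 complex I assembly factors were lower and 1 higher, with Acad9 at -0.52, and 3 were lower after quantile normalization. There, 2 of 6 of complex III were lower (Lyrm7, -0.76) and 1 higher, 3 of 18 of complex IV were lower (Cox18, -0.67) and 1 of 3 of ATP synthase was lower. Of 13 coenzyme Q synthesis genes 4 were lower in LFD MTX50, with Coq7 at -0.65. In HFD against LFD, where 10.4% of all genes were lower, the counts of lower genes were 1 of 16, 0 of 6, 1 of 18, 1 of 3 and 0 of 13 in the same order. The random slide block left 1 gene of all these lists called in LFD MTX50, among the complex IV factors, and 0 in HFD.

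Citrate cycle enzymes and mitochondrial ribosomal proteins had more lower genes in LFD MTX50 than in HFD, with no test of that difference. Of 14 citrate cycle enzymes, 7 were lower in LFD MTX50 and 1 in HFD, where 10.5% and 10.4% of all genes were lower. Ogdh, of the 2-oxoglutarate dehydrogenase, fell by 0.91 (SE 0.25, adjusted p = 0.0152) and Cs, citrate synthase, by 0.69 (SE 0.19, adjusted p = 0.0169). Of 78 mitochondrial ribosomal proteins, which translate the subunits of the mitochondrial genome, 25 were lower in LFD MTX50 and 11 in HFD, with medians of -0.22 and -0.17. After quantile normalization 5 citrate cycle and 17 mitochondrial ribosomal genes were lower in LFD MTX50, where 10.3% of all genes were. In HFD these were 1 and 7, where 10.4% of all genes were lower. Under the random slide block, 0 citrate cycle and 1 mitochondrial ribosomal gene were called in LFD MTX50, and 1 and 0 in HFD. Of 84 cytosolic ribosomal proteins, 57 were lower and 1 higher in HFD (median -0.51), where 10.4% of all genes were lower. In LFD MTX50, 20 were higher and 1 lower (median 0.18), where 17.6% of all genes were higher. In HFD MTX50 against HFD, 44 were higher (median 0.41), where 4.83% of all genes were. After quantile normalization these counts were 18 lower, 22 higher and 8 higher, beside 2047, 1648 and 1064 of all 19597 genes. The random slide block left 14, 0 and 54 called in these comparisons, where 1.94%, 1.73% and 9.48% of all genes were.

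Of 16 regulators of mitochondrial biogenesis, 6 were lower in HFD, where 10.4% of all genes were, and 3 were lower and 1 higher in LFD MTX50. Ppargc1a, the coactivator PGC-1α, stood at -0.98 to -0.67 in LFD and at -2.28 to -1.81 in HFD (-1.20 ± 0.25, adjusted p = 0.00528), and at -1.59 to -0.53 in HFD MTX50, higher than in HFD by 0.76 ± 0.24 (adjusted p = 0.0482). In LFD MTX50 it stood at -0.98 to 0.35 and was not called against LFD (0.30 ± 0.24, adjusted p = 0.336). Gabpa, the DNA-binding subunit of the ETS factor NRF2/GABP, fell by 0.85 in HFD (SE 0.13, adjusted p = 0.00252) and by 0.42 in LFD MTX50 (SE 0.12, adjusted p = 0.0202), and was higher by 0.47 ± 0.12 in HFD MTX50 against HFD (adjusted p = 0.0262). Esrra, which encodes ERRα, fell by 0.57 in HFD (SE 0.14, adjusted p = 0.0112) and by 0.44 in LFD MTX50 (SE 0.14, adjusted p = 0.0254). Nrf1 fell by 0.57 in LFD MTX50 (SE 0.20, adjusted p = 0.0388) and was not called in HFD (-0.43 ± 0.21, adjusted p = 0.123). Its treatment effect differed between diets by 1.06 ± 0.28 (adjusted p = 0.0138). After quantile normalization Ppargc1a and Gabpa kept their calls in HFD, while the falls of Nrf1 and Esrra in LFD MTX50 were not called (adjusted p = 0.0532 and 0.0667). The random slide block left 1 of the 16 called in HFD (Gabpa, adjusted p = 0.0460; Ppargc1a was at 0.0512) and 0 in LFD MTX50, while Ppargc1a and Gabpa kept their calls in HFD MTX50 against HFD (adjusted p = 0.0377 and 0.0328). Tfam, which packs and transcribes the mitochondrial genome, and Ppargc1b were not called against LFD or between HFD MTX50 and HFD, with Tfam at 0.29 to 0.42 in LFD, 0.29 to 0.50 in LFD MTX50 and 0.21 to 0.39 in HFD.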

How the data were processed

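Total RNA of 18 mouse livers was hybridised to 18 one-colour Agilent 4×44K arrays (labels: Trizol with RNeasy columns and a linear amplification kit for low input; methods: RNeasy and Quick Amp labelling). Scans were quantified by the authors in Agilent Feature Extraction 10.7.3.1, and the deposited values are intensities with the background subtracted and trends within an array removed, not scaled between arrays. The deposited table of the whole series holds background-subtracted intensity values and served as an alternative.

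Levels are log2 of the processed signal minus log2 of the array's 75th percentile over 43020 non-control spots. Outlier spots were left out (124 to 294 per array, so that Ndufb10 lacks LFD mouse 1 and Uqcrh lacks HFD MTX50 mouse 4), repeated spots averaged, and 0 spots were saturated. Of 39429 probes, 35735 were kept for being detected (well above background) on 4 or more arrays. Names came from RefSeq (GRCm38.p6) by accession for 28025 probes (71.1%). The array was designed on an earlier build, and coordinates are given for promoters alone. A gene was read on its brightest kept probe. Of the 81 members, 22 have over 1 kept probe, and all probes shared a sign in 16 of 22 for diet, 16 under methotrexate on LFD, 12 under methotrexate on HFD and 13 between the treated groups.

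limma 3.58.1 (R 4.3.3) fitted 1 model with the 4 groups, with empirical Bayes tests and Benjamini-Hochberg adjustment over all kept probes. The scripts were tested on simulated data first. The number of arrays, 4 or 5 per group, limits the precision. The mice carry replicate numbers in each group, but the deviations of same-numbered mice correlated at -0.31 to 0.25 over 25 pairs, so the numbers do not pair them and the model has no block.

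Members, gene lists and the genes named were chosen with earlier results of these data known. Named were, in each comparison, the 5 largest rises and falls among called members, the core subunits of each complex, subunits with tissue forms, up to 5 members called for the difference between the treatment effects, 9 genes outside the members (Ppargc1a, Ppargc1b, Tfam, Nrf1, Gabpa, Esrra, Cox4i1, Cycs and Cyc1) and up to 3 called genes per list. Some genes that this rule names are not reported here. Other members named were chosen after their values were seen. Marker lists of 10 cell types were summed on the linear scale.

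The alternatives were normexp background (offset 50, on the median spot and background signals, since the mean signal is not used here), quantile normalization, a median scaling over probes detected throughout, the table of the series, no filter on dim probes, only probes detected on all arrays, slide as a random or fixed block, a replicate block, only the groups compared, the methods' t-test, an intensity trend with robust variances, the mean of a gene's probes and leaving out each array.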

Additional observations from a re-analysis of the deposited data

Results flagged for a closer look

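Among named members and the mean of each complex, 6 of 156 groups of values had a mouse far from the others of its group, where chance gives about 1 in 20. The level was 3.12 for Ndufb5 in HFD MTX50 mouse 3 (others 3.44 to 3.57), 2.27 for Ndufs1 in LFD MTX50 mouse 1 (others 2.18 to 2.20), 3.76 for Ndufa6 in HFD mouse 2 (others 3.53 to 3.55), 3.12 for Atp5o in LFD MTX50 mouse 3 (others 3.45 to 3.59) and 5.85 for Atp5g3 in HFD mouse 2 (others 5.53 to 5.58). The mean of complex IV was 0.06 relative to LFD in HFD mouse 2 (others -0.08 to -0.07).

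The effect of methotrexate differed between the diets, as a log2 difference of HFD minus LFD effects past the adjusted p in limma, in 14 named members. These were Sdhc (1.02), Sdha (0.61), Ndufb6 (0.78), Ndufb5 (0.49), Ndufa4 (0.54), Uqcrfs1 (0.51), Cox5b (0.91), Cox7a2 (0.77), Cox8a (0.49), Atp5pb (0.75), Atp5o (0.72), Atp5k (0.70) and Atp5j (0.57), all with the higher effect on HFD, and Cox6b2 (-0.60). Sdhc, Ndufb6 and Cox6b2 kept the call after quantile normalization. Dimmer probes of Sdhc (-0.15), Ndufb5 (0.09), Cox8a (0.30) and Atp5pb (0.53) were not called, while those of Ndufb6 (0.48) and Atp5k (0.70) were.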

How the results depend on the processing

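Called members, in the order HFD vs LFD, LFD MTX50 vs LFD, HFD MTX50 vs HFD, HFD MTX50 vs LFD MTX50 and the difference between the treatment effects, numbered 27, 42, 4, 2 and 24. With normexp background they were 0, 0, 0, 0 and 0 (genes called of all tested: 2, 116 higher with 223 lower, 0, 1 and 0; members with an unadjusted p below 0.05 in limma: 27, 44, 0, 2 and 9), while the medians of the first 2 were -0.50 and -0.57. The all-gene medians of these 2 comparisons moved too, from 0.08 and 0.10 to 0.38 and 0.47. With quantile normalization they were 5, 23, 6, 4 and 5, with medians of -0.0445 in HFD vs LFD and -0.20 in HFD MTX50 vs HFD, and the all-gene median moved from 0.10 to -0.00 in LFD MTX50 vs LFD and from -0.11 to 0.00 in the difference. All genes higher and lower were then 1713 and 2047, 1648 and 2028, 1064 and 1216, 1690 and 1572, and 1546 and 1737. With slides as a random block they were 0, 0, 2, 0 and 5 (members with an unadjusted p below 0.05: 31, 38, 13, 5 and 29). With slides as a fixed block, which only HFD MTX50 vs HFD allows, the median was 0.13. The cause of these changes was not tested.

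The replicate block gave 27, 39, 0, 4 and 25. Of all 19597 genes, higher and lower were 3389 and 1930, 3500 and 1915, 494 and 519, 1260 and 1645, and 1588 and 3477. The table of the series gave 4 in HFD MTX50 vs LFD MTX50, where 1292 of all genes were higher and 1596 lower. No filter on dim probes gave 0 in HFD MTX50 vs HFD and 1 in HFD MTX50 vs LFD MTX50, and only probes detected on all arrays gave 7 in HFD MTX50 vs HFD. Without the filter, all genes higher and lower were 815 and 996 in the first and 1294 and 1501 in the second. With only probes detected on all arrays, 1103 of 17526 genes were higher and 1376 lower. With only the groups compared, HFD MTX50 vs HFD and HFD MTX50 vs LFD MTX50 both gave 0 members. Of all genes, 0 were higher and 0 lower in the first, and 5 and 4 in the second. The methods' t-test after Benjamini-Hochberg adjustment also gave 0 members in both (members with an unadjusted p below 0.05: 8 and 12 by that test). By it, 0 of all genes were higher and 0 lower in the first, and 31 and 82 in the second. At p up to 0.015 with a 2-fold change, that test gave 0 members in all 4 comparisons, none of whose called members but Ndufa4l2 approaches 2-fold. All genes higher and lower were then 404 and 108, 353 and 399, 58 and 75, and 288 and 44.

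Leaving out 1 array gave 5 (without HFD mouse 3) to 31 in HFD vs LFD, 22 (without LFD mouse 2) to 48 in LFD MTX50 vs LFD, 0 to 10 in HFD MTX50 vs HFD, 0 to 7 in HFD MTX50 vs LFD MTX50, and 11 to 33 in the difference. Counts over all genes moved in these fits as well, as given with each comparison above. The medians ran from -0.30 to -0.20, from -0.34 to -0.28, from -0.08 to 0.04, from -0.04 to 0.10 in the 4 comparisons. Of 58 calls of named members, 27 held under quantile normalization, 53 under scaling to the median, 53 under the replicate block and 5 with slides as a random block. Of the 23 in LFD MTX50 vs LFD, 14 held whichever array was left out and 11 of those also under quantile normalization; of the 15 in HFD vs LFD these were 4 and 3 (Sdhc, Ndufb5 and Cox6b2), and of the 14 in the difference 9 and 3 (Sdhc, Ndufb6 and Cox6b2). No call of a named member reversed its sign. In HFD MTX50 vs HFD, however, the called members went from 0 higher and 4 lower to 4 higher and 0 lower without HFD MTX50 mouse 3, 2 and 0 with slides as a random block, and 5 and 0 within the shared slide. Of all 19597 genes, 946 were higher and 1202 lower in the main fit, and 923 and 865 without HFD MTX50 mouse 3. With the random block these counts were 879 and 979, and within the shared slide 754 and 676.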

Other observations

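Ndufa10, a complex I subunit, stood at -1.41 in LFD mouse 1 against 1.62, 1.65 and 1.66 in the other LFD mice, and at 1.05 to 1.81 in the 14 mice of the other groups. It was chosen after its values were seen. Its difference in HFD vs LFD (0.87 ± 0.47, adjusted p = 0.167) includes that array.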
